A study of Mus musculus with 6 samples.

Results

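The genes described here are the splicing factors and heterogeneous nuclear ribonucleoproteins (hnRNPs) of activated mouse T cells. They were taken by symbol from the deposited gene table, as every row whose symbol begins with Srsf, Sf3a, Sf3b or Prpf and a digit, or with Hnrnp, Snrp or U2af. This gave 69 of the 24470 genes listed, with 11 in the Srsf family, 21 in Hnrnp, 9 in Sf3, 12 in Snrp, 13 in Prpf and 3 in U2af. Measured values played no part in the rule, and snRNP genes with symbols such as Snrnp70 fall outside it.

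Naive CD4+ T cells, the helper cells that await a first antigen, were isolated by MACS, a magnetic bead method, from the spleens and the lymph nodes draining the skin. The donors were male C57BL/6J mice. In every group, cells in 200 µL of medium were stimulated for 6 h by plate-bound antibodies (coating at 1 µg/mL) against CD3 and CD28, the receptor parts that deliver the activating and the costimulatory signal. The 3 CCL19 libraries came from cells that also received recombinant mouse CCL19, the chemokine ligand of CCR7. The 3 NoCKN libraries came from cells given the antibodies and no chemokine. The labels used here give no dose of CCL19, no age and no pooling of mice. They also do not say whether replicates were separate mice or cultures, and the p-values therefore reflect a spread between libraries that may be technical.

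Splicing removes introns from pre-mRNA. The U1 snRNP binds the 5′ splice site, the U2AF pair binds the 3′ splice site, and the U2 snRNP with its SF3A and SF3B complexes settles on the branch point before the U4/U6.U5 tri-snRNP joins. SR proteins, made by the Srsf genes, mostly favour the use of nearby exons, while hnRNPs coat the transcript and often oppose it. In T cells the best known case is Ptprc, which encodes CD45 and whose variable exons are skipped after activation under the control of hnRNP LL and hnRNP L. The counts used here are per gene, so they measure how much transcript each factor had and not which exons were used.

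The libraries held from 16978736 to 27429898 counts, 67 members were among the 11666 genes that passed the filter on low counts, and 2 were not. One of these, Snrpn, which encodes the imprinted neuronal SmN protein, had 0 counts in all 6 libraries. The other, the pseudogene Hnrnpa1l2-ps2, had 0, 1 and 3 counts with CCL19 against 1, 0 and 0 in NoCKN. On the same strand, exons of Snrpn share 216 bases with Snurf, which also had 0 counts throughout, and 589 with Gm38393. How reads in shared bases were counted is unknown here, which leaves the 0 of Snrpn uncertain. T cell markers (6 genes) summed to between 2239 and 2429 CPM (counts scaled to library size and composition) with CCL19 and between 2361 and 2575 CPM in NoCKN. The summed CPM of markers of B cells, myeloid cells, NK cells, erythroid cells and CD8 T cells reached at most 22.2 in any library. Foxp3, the marker of regulatory T cells, lay between 9.93 and 10.85 CPM with CCL19 and between 9.98 and 10.8 CPM in NoCKN. For each of these lists the ranges of the groups overlapped, and no list had a gene at 0 throughout.

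With CCL19, most of these genes stood slightly higher. The log2 fold change was above 0 in 58 of the 67 tested members (86.6%) and below 0 in 9, beside 49.8% above 0 among all tested genes. The median was 0.16 over the members and -0.0007 over all tested genes. Together the members took 1.81%, 1.80% and 1.71% of counts in the CCL19 libraries, against 1.58%, 1.67% and 1.68% in NoCKN. Every CCL19 library therefore had a larger share than every NoCKN library. In bulk RNA of this kind, a difference in the cells present and a difference in RNA per cell cannot be told apart.

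How many single members passed a threshold depended on the test. edgeR's quasi-likelihood test called 0 members at a Benjamini-Hochberg adjusted p under 0.05, as it called 0 of all 11666 genes (0.0%). The lowest adjusted p, 0.0505, was shared by 361 genes, among them Snrpd1, Prpf38a and Prpf3. At an adjusted p under 0.1 edgeR called 18 members higher, beside 7.62% of all tested genes, and 0 lower. At an unadjusted p under 0.05 it had 30 members higher, beside 14.5% of all genes, and 2 lower, beside 13.0%. The 3 CCL19 values lay wholly above the 3 NoCKN values in 32 members, beside 15.3% of all tested genes, and wholly below in 2, beside 14.5%.

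DESeq2 called 16 of the 66 members to which it gave an adjusted p (24.2%) higher at an adjusted p under 0.05, beside 7.26% of all genes so tested. It called 0 lower, beside 6.2% of all genes. Folds of the 16 ran from 1.18 to 1.33. Their edgeR adjusted p lay between 0.0505 and 0.0954, and in all 16 the groups did not overlap. The authors' deposited table of changed genes lists 15 members, each as higher with CCL19. In that direction it holds 2.57% of all 24470 genes, of which only 11666 were tested here. Of the 69 members 67 were tested, so the 2.57% is not a like-for-like base for them. DESeq2 called those 15 members as well, and the remaining 1 of its 16 is Sf3a3. With filtering at 0.1, the DESeq2 adjusted p of Sf3a3 was 0.0507, and the gene was not called. The submitters' processing notes also name DESeq2, and the counts are the same, so the lists are not independent. The number of members that DESeq2 called depended on which libraries entered. It was 0 without CCL19 replicate 1, 0 without CCL19 replicate 2 and 0 without NoCKN replicate 1, against 23 without CCL19 replicate 3, 12 without NoCKN replicate 2 and 18 without NoCKN replicate 3. Of those 23, 15 were among the 16. Shares over all genes were not taken for the fits that left out a library. Whether these changes in number are particular to the members was therefore not tested.

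**Figure D1:**
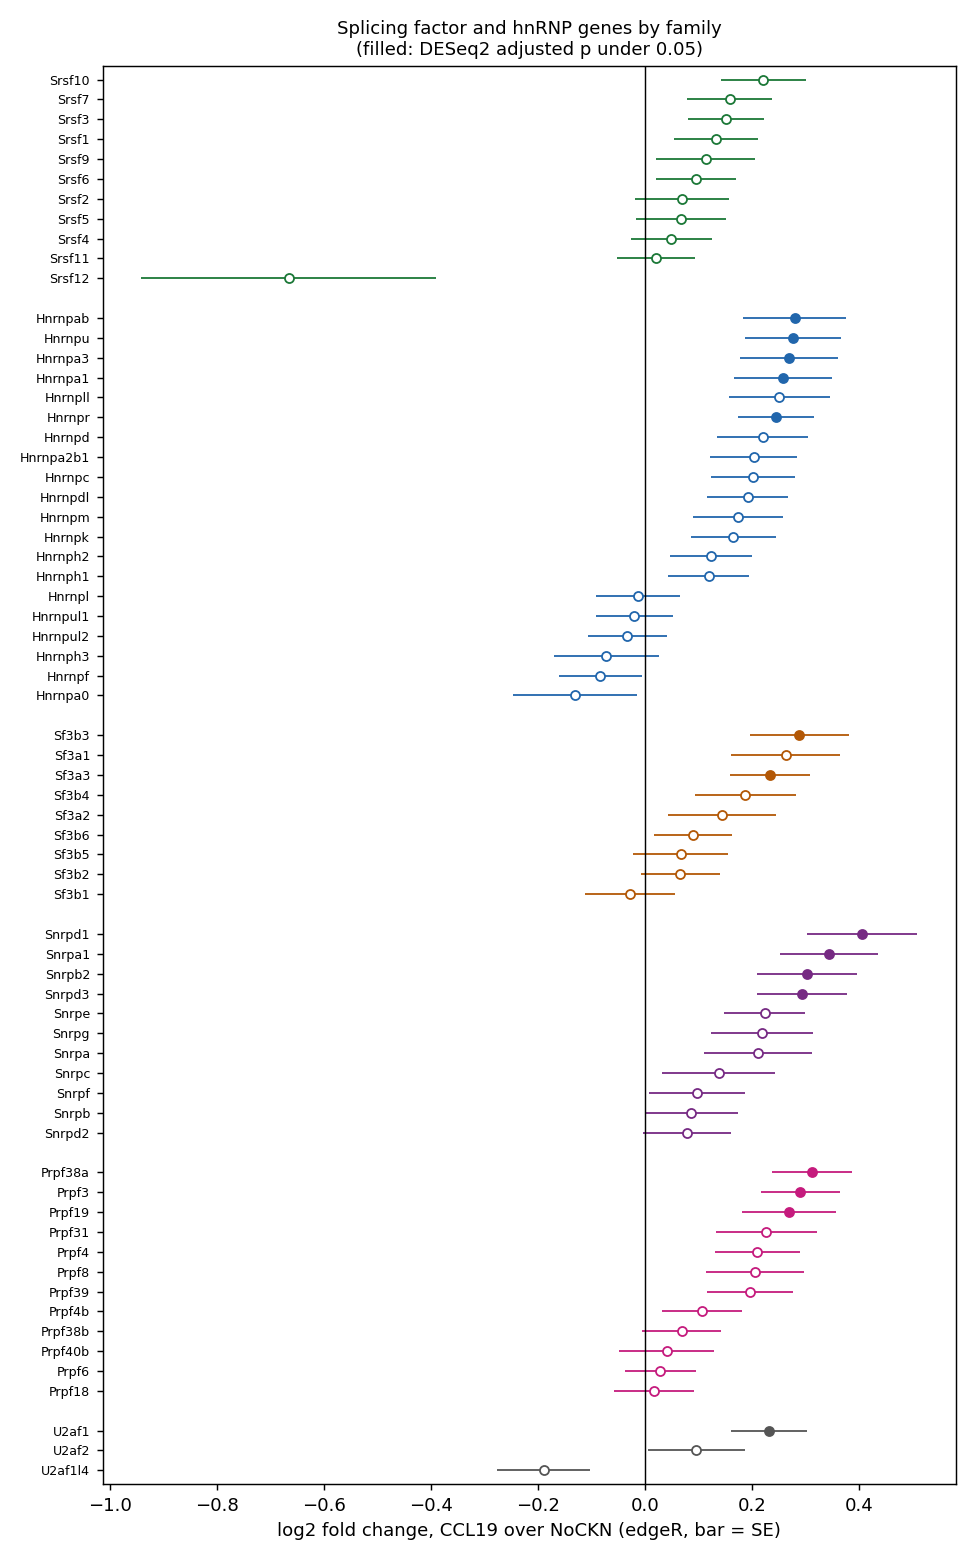
Log2 fold change of 66 of the 67 tested members, CCL19 over NoCKN, from the edgeR fit on 3 libraries a group, with bars of 1 standard error and one block of rows per family. Filled points have a DESeq2 adjusted p under 0.05. Most points lie to the right of 0, the Snrp and Prpf rows without exception, and Srsf12 lies furthest to the left at -0.67.

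The SR protein genes showed small differences. Of the 11 Srsf genes, 10 had a log2 fold change above 0, with a median of 0.096. DESeq2 called 0 of the 10 to which it gave an adjusted p, beside 7.26% of all genes called higher and 6.2% lower. Srsf10, which unlike the classical SR proteins can repress splicing when dephosphorylated, had the highest value of the family. It stood at 125, 122 and 111 CPM with CCL19, against 94.1, 103 and 110 CPM in NoCKN. Only a narrow gap separated the lowest CCL19 from the highest NoCKN library, and the log2 fold change was 0.22 ± 0.079 (SE; edgeR adjusted p = 0.0992, DESeq2 adjusted p = 0.0764).

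Srsf1, the founding splicing activator of the family, stood at 473, 462 and 446 CPM with CCL19, against 398, 416 and 445 CPM in NoCKN (log2 fold change 0.13 ± 0.079, SE). Srsf3, which also links spliced mRNA to export, stood at 167, 167 and 181 CPM with CCL19 and at 150, 155 and 159 CPM in NoCKN (0.15 ± 0.071, SE). The groups did not overlap in either gene, and neither passed a test, with an edgeR adjusted p of 0.289 for Srsf1 and 0.181 for Srsf3. Srsf7, another shuttling SR protein, averaged 384 ± 12.3 CPM with CCL19 and 344 ± 23.3 CPM in NoCKN (SD, n = 3 each). For Srsf2, the nuclear speckle protein SC35, the averages were 575 ± 46.7 CPM with CCL19 and 548 ± 36.2 CPM in NoCKN. Srsf5 averaged 404 ± 29.1 CPM with CCL19 and 385 ± 20.8 CPM in NoCKN, so both of these genes differed by less than the spread between libraries.

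Srsf12 went the other way at a very low level. It had 1.63, 1.46 and 1.39 CPM with CCL19, against 2.85, 1.64 and 2.66 CPM in NoCKN. The groups lay apart by a sliver, between CCL19 replicate 1 and NoCKN replicate 2. The log2 fold change of -0.67 ± 0.28 (SE) had an edgeR adjusted p of 0.138, and DESeq2 gave the gene no adjusted p. Without Srsf12 the family median was 0.10. Srsf9, Srsf6, Srsf4 and Srsf11 had log2 fold changes of 0.11, 0.096, 0.050 and 0.021, and among them the groups lay apart in Srsf6 only.

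The hnRNPs were divided. Of 20 tested, 14 had a log2 fold change above 0 and 6 below, with a median of 0.18. DESeq2 called 5 higher (25.0%, beside 7.26% of all genes), namely Hnrnpab, Hnrnpu, Hnrnpa3, Hnrnpa1 and Hnrnpr. The groups did not overlap in 11, all of them higher with CCL19. Among all tested genes the groups lay apart in 15.3% higher and in 14.5% lower.

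Hnrnpu encodes a large nuclear protein, also called SAF-A, that binds both RNA and chromatin. It stood at 1159, 1051 and 966 CPM with CCL19, against 813, 883 and 926 CPM in NoCKN. All 3 CCL19 libraries lay above all 3 NoCKN libraries, with a log2 fold change of 0.28 ± 0.090 (SE; edgeR adjusted p = 0.0794, DESeq2 adjusted p = 0.0217). Hnrnpab, a protein of the hnRNP A/B group, stood at 768, 710 and 638 CPM with CCL19, against 514, 614 and 614 CPM in NoCKN. NoCKN replicate 1 was well below the other libraries, and the fold was 1.21 (DESeq2 adjusted p = 0.0332).

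Hnrnpa1, a repressor that favours exon skipping, stood at 495, 528 and 436 CPM with CCL19, against 375, 411 and 434 CPM in NoCKN. CCL19 replicate 3 and NoCKN replicate 3 were nearly level, and the log2 fold change over all libraries was 0.26 ± 0.091 (SE; DESeq2 adjusted p = 0.0393). Its close relative Hnrnpa3 stood at 450, 488 and 443 CPM with CCL19 and at 339, 382 and 426 CPM in NoCKN (1.21-fold, DESeq2 adjusted p = 0.0347). Both genes have processed pseudogenes, and the treatment of multi-mapping reads is unknown here, which leaves their counts uncertain. Hnrnpr, related to Syncrip, stood at 117, 126 and 114 CPM with CCL19 and at 97.9, 101 and 103 CPM in NoCKN (1.19-fold, DESeq2 adjusted p = 0.0276).

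Other hnRNP genes had a log2 fold change above 0 and were not called. Hnrnpa2b1, which sorts RNAs as well as splicing them, averaged 780 ± 46.9 CPM with CCL19 and 678 ± 27.6 CPM in NoCKN (SD, n = 3 each; DESeq2 adjusted p = 0.0523). Hnrnpc, which binds uridine tracts, averaged 373 ± 2.04 CPM with CCL19 and 324 ± 21.8 CPM in NoCKN (DESeq2 adjusted p = 0.0579). Hnrnpk, a protein that binds cytidine-rich RNA, averaged 673 ± 12.4 CPM with CCL19 and 600.0 ± 38.4 CPM in NoCKN (DESeq2 adjusted p = 0.114). In all 3 genes the groups lay apart. Hnrnpd, which binds AU-rich elements and promotes mRNA decay, averaged 272 ± 20.5 CPM with CCL19 and 233 ± 17.3 CPM in NoCKN, with overlapping groups. Its relative Hnrnpdl averaged 333 ± 6.69 CPM with CCL19 and 291 ± 15.4 CPM in NoCKN. The groups lay apart there, as they did in Hnrnpm (log2 fold change 0.17) and Hnrnph1 (0.12), but not in Hnrnph2 (0.12).

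The regulators of CD45 exons gave unlike values. Hnrnpll stood at 139, 134 and 107 CPM with CCL19, against 99.7, 111 and 108 CPM in NoCKN. CCL19 replicate 3 fell inside the NoCKN range, and the log2 fold change was 0.25 ± 0.095 (SE; edgeR adjusted p = 0.111, DESeq2 adjusted p = 0.0804). Hnrnpl stood at 385, 388 and 381 CPM with CCL19 and at 391, 410 and 361 CPM in NoCKN, a log2 fold change of -0.012 ± 0.078 (SE). The log2 ratio of Hnrnpll to Hnrnpl in a library averaged -1.61 with CCL19 and -1.86 in NoCKN, and its groups overlapped. Among the other hnRNPs below 0, Hnrnpa0 had the lowest value, with 566, 539 and 422 CPM with CCL19 and 540, 636 and 495 CPM in NoCKN (-0.13 ± 0.12, SE). Hnrnpf, Hnrnph3, Hnrnpul1 and Hnrnpul2 lay between -0.083 and -0.020.

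**Figure D2:**
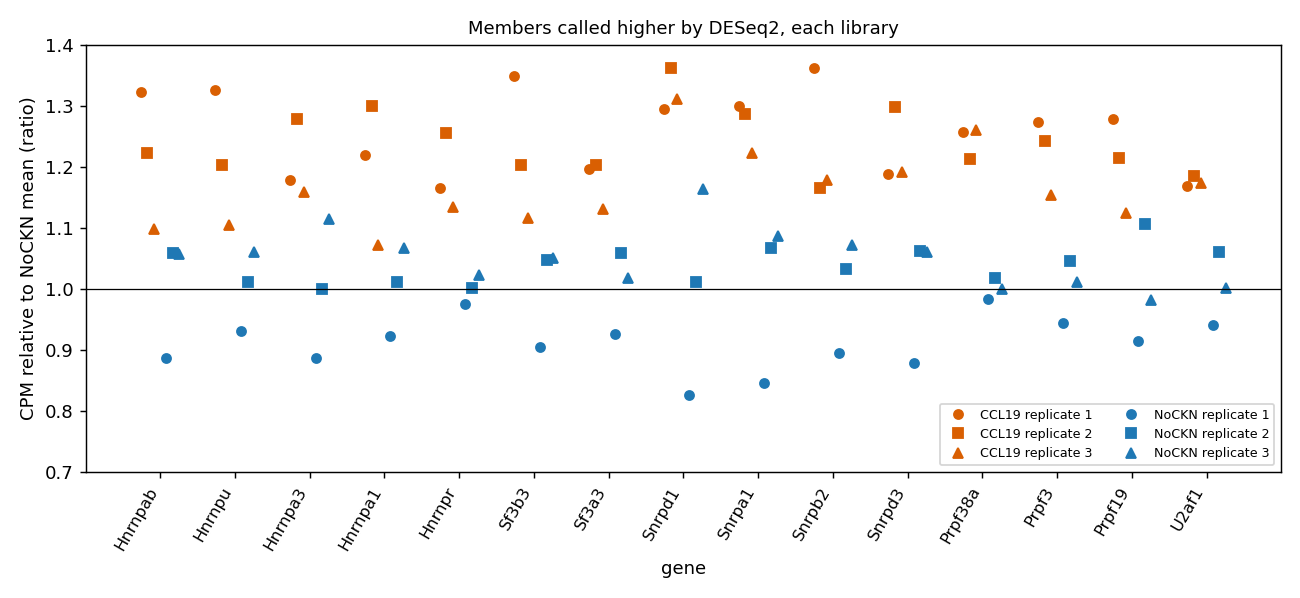
CPM in each library divided by the NoCKN mean of the same gene, for 15 of the 16 members that DESeq2 called higher (CCL19 replicates in orange, NoCKN replicates in blue, one marker shape per replicate number). All 3 orange markers lie above all 3 blue ones for each gene, NoCKN replicate 1 is the lowest of its group in all 15, and CCL19 replicate 3 is the lowest of its group in 10 of the 15.

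At the 3′ splice site, the small subunits of U2AF lay on opposite sides of 0. U2af1, the small subunit that reads the AG at the intron end, stood at 117, 119 and 118 CPM with CCL19, against 94.3, 106 and 100 CPM in NoCKN. The CCL19 libraries were almost level and all above NoCKN, with a log2 fold change of 0.23 ± 0.071 (SE; edgeR adjusted p = 0.0714, DESeq2 adjusted p = 0.0398). U2af1l4, a related small subunit that can take its place, stood at 35.4, 39.5 and 40.6 CPM with CCL19, against 46.9, 44.0 and 40.9 CPM in NoCKN. Its groups also lay apart, in the opposite direction, by less than 1 CPM, with a log2 fold change of -0.19 ± 0.087 (SE; edgeR adjusted p = 0.177, DESeq2 adjusted p = 0.195).

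The log2 ratio of U2af1 to U2af1l4 within a library was 1.72, 1.58 and 1.53 with CCL19 and 1.01, 1.27 and 1.29 in NoCKN. All CCL19 ratios exceeded all NoCKN ratios, with a difference of means of 0.42. This pair was picked after its values were seen, and the difference was not tested. Exons of U2af1l4 share 1086 bases with Gm49396 on the same strand and 119 with Psenen on the opposite strand. That leaves its counts, and so the ratio, uncertain. U2af2, the large subunit that binds the polypyrimidine tract, averaged 420 ± 32.0 CPM with CCL19 and 392 ± 36.6 CPM in NoCKN (SD, n = 3 each), within the spread.

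In the branch point complexes, 8 of 9 Sf3 genes had a log2 fold change above 0, with a median of 0.14. DESeq2 called 2 of the 9 higher (22.2%), beside 7.26% of all genes. Sf3b3, the beta-propeller scaffold of SF3B, stood at 604, 539 and 500 CPM with CCL19, against 405, 469 and 471 CPM in NoCKN (log2 fold change 0.29 ± 0.093, SE; DESeq2 adjusted p = 0.0233). Sf3a3, a subunit of SF3A, stood at 114, 115 and 108 CPM with CCL19, against 88.5, 101 and 97.3 CPM in NoCKN (0.23 ± 0.075, SE; DESeq2 adjusted p = 0.0481). The groups did not overlap in either gene.

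Sf3b1, the subunit that holds the branch point helix and the best known target of splicing inhibitors, was level between the groups. It had 937, 909 and 1022 CPM with CCL19, against 1000, 910 and 1014 CPM in NoCKN, a log2 fold change of -0.028 ± 0.084 (SE). The median of the 3 Sf3a genes was 0.23 and that of the 6 Sf3b genes 0.079. Sf3a1, which contacts the U1 snRNP, averaged 183 ± 29.4 CPM with CCL19 and 153 ± 9.69 CPM in NoCKN (SD, n = 3 each). CCL19 replicate 3 was inside the NoCKN range for that gene. The other 5 Sf3 genes, Sf3b4, Sf3a2, Sf3b6, Sf3b5 and Sf3b2, had log2 fold changes between 0.067 and 0.19, with the groups apart in Sf3b2 and Sf3b6.

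The snRNP protein genes lay above 0 throughout. All 11 tested Snrp genes had a log2 fold change above 0, between 0.080 and 0.41, with a median of 0.22. DESeq2 called 4 of them higher (36.4%), beside 7.26% of all genes. Snrpd1, a subunit of the Sm ring that surrounds the snRNA of most spliceosomal snRNPs, had the largest log2 fold change above 0 among the 67 members. It stood at 79.1, 83.2 and 80.2 CPM with CCL19, against 50.5, 61.8 and 71.1 CPM in NoCKN. The CCL19 libraries lay close together and the NoCKN libraries were spread below them, with a log2 fold change of 0.41 ± 0.10 (SE; edgeR adjusted p = 0.0505, DESeq2 adjusted p = 0.0103). The estimate lay between 0.29 and 0.52 when each library was left out in turn.

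Its ring partner Snrpd3 stood at 121, 132 and 121 CPM with CCL19 and at 89.2, 108 and 108 CPM in NoCKN (0.29 ± 0.085, SE; DESeq2 adjusted p = 0.0254). Other Sm genes had smaller fold changes. Snrpe averaged 57.5 ± 2.71 CPM with CCL19 and 49.2 ± 1.12 CPM in NoCKN (SD, n = 3 each), with groups apart and a DESeq2 adjusted p of 0.0728. Snrpb, whose product SmB is the somatic relative of SmN, averaged 325 ± 24.0 CPM with CCL19 and 306 ± 25.9 CPM in NoCKN. Snrpd2, the lowest of the family, averaged 64.3 ± 2.24 CPM with CCL19 and 60.8 ± 5.56 CPM in NoCKN. The 7 Sm genes had a median log2 fold change of 0.22, and DESeq2 called 2 of them higher (28.6%), beside 7.26% of all genes.

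Both members of the family that encode proteins specific to the U2 snRNP were called by DESeq2. Snrpa1, the U2-A′ protein, stood at 109, 108 and 103 CPM with CCL19, against 71.1, 89.7 and 91.4 CPM in NoCKN (log2 fold change 0.35 ± 0.092, SE; edgeR adjusted p = 0.0542, DESeq2 adjusted p = 0.0158). Snrpb2, its partner U2-B″, stood at 59.0, 50.5 and 51.1 CPM with CCL19, against 38.8, 44.8 and 46.5 CPM in NoCKN (0.30 ± 0.093, SE; DESeq2 adjusted p = 0.0417). Neither gene's groups overlapped. The U1-A gene Snrpa stood at 127, 122 and 95.04 CPM with CCL19, against 92.3, 107 and 97.7 CPM in NoCKN. CCL19 replicate 3 lay within the NoCKN range, and the edgeR adjusted p was 0.190. Snrpc, which encodes the U1-C protein at the 5′ splice site, averaged 31.9 ± 1.72 CPM with CCL19 and 28.9 ± 4.04 CPM in NoCKN (SD, n = 3 each), with overlap. The Sm genes Snrpg and Snrpf had log2 fold changes of 0.22 and 0.098, with the groups apart in Snrpg only.

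The Prpf genes, named after yeast pre-mRNA processing mutants, also all lay above 0. Their 13 log2 fold changes ran from 0.018 to 0.31, with a median of 0.21. DESeq2 called 4 of the 13 higher (30.8%), beside 7.26% of all genes. Prpf38a, a protein of the spliceosome before its activation, stood at 52.5, 50.6 and 52.6 CPM with CCL19, against 41.1, 42.5 and 41.7 CPM in NoCKN. Both groups were tight and clearly apart, with a log2 fold change of 0.31 ± 0.075 (SE; edgeR adjusted p = 0.0505, DESeq2 adjusted p = 0.0125). Its relative Prpf38b averaged 263 ± 13.5 CPM with CCL19 and 250.4 ± 6.95 CPM in NoCKN (SD, n = 3 each), and overlapped. The log2 ratio of Prpf38a to Prpf38b was -2.26, -2.45 and -2.30 with CCL19 and -2.62, -2.51 and -2.62 in NoCKN, without overlap, in a pair picked after its values were seen. The within-library ratio of Hnrnpul1 to Hnrnpul2 overlapped between the groups.

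Prpf3, a U4/U6 protein, stood at 112, 109 and 101 CPM with CCL19, against 82.5, 91.6 and 88.5 CPM in NoCKN (0.29 ± 0.074, SE; edgeR adjusted p = 0.0505, DESeq2 adjusted p = 0.0148). Prpf19, the ubiquitin ligase that gives its name to an activating complex of the spliceosome, stood at 306, 291 and 269 CPM with CCL19, against 219, 265 and 235 CPM in NoCKN (0.27 ± 0.087, SE; DESeq2 adjusted p = 0.0305). In both genes the groups lay apart.

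Prpf8, the scaffold around the catalytic centre, stood at 937, 854 and 756 CPM with CCL19, against 691, 763 and 755 CPM in NoCKN. CCL19 replicate 3 lay inside the NoCKN range, and the gene passed neither test (edgeR adjusted p = 0.166, DESeq2 adjusted p = 0.0982). Prpf31, another U4/U6 protein, averaged 130 ± 9.42 CPM with CCL19 and 111 ± 14.8 CPM in NoCKN (SD, n = 3 each; DESeq2 adjusted p = 0.118). Prpf18, a second-step factor, was the lowest of the family at 89.6 ± 5.85 CPM with CCL19 and 88.6 ± 2.96 CPM in NoCKN. Prpf4, the partner of Prpf3, averaged 87.3 ± 3.24 CPM with CCL19 and 75.5 ± 6.44 CPM in NoCKN, with groups apart and an edgeR adjusted p of 0.113. Prpf39, Prpf4b, Prpf40b and Prpf6 had log2 fold changes of 0.20, 0.11, 0.041 and 0.029, with overlapping groups.

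Ordered by median log2 fold change, the families ran Snrp 0.22, Prpf 0.21, Hnrnp 0.18, Sf3 0.14, U2af 0.097 and Srsf 0.096. The last 2 were level, and U2af was the lower in 4 of the 6 fits that left out a library, for example at 0.052 against 0.092 for Srsf without NoCKN replicate 3. Under the offset for GC content and length given further on, the order changed and Sf3 had the highest median. Differences between families were not tested, since members are not replicates. The range within a family was wider than the distance between family medians in each of the 6. The level of a family in a library was taken as the mean deviation of its genes from their own means in log2 CPM. For Snrp it was 0.13, 0.16 and 0.038 with CCL19, against -0.25, -0.024 and -0.053 in NoCKN. For Prpf it was 0.12, 0.092 and 0.056 with CCL19, against -0.15, -0.055 and -0.060 in NoCKN. For Hnrnp it was 0.087, 0.12 and -0.014 with CCL19, against -0.12, -0.037 and -0.035 in NoCKN. The groups lay apart in these 3 families and overlapped in Srsf, Sf3 and U2af.

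The libraries did not contribute evenly. NoCKN replicate 1 was below all 3 CCL19 libraries in 52 of the 67 members, NoCKN replicate 2 in 37 and NoCKN replicate 3 in 46. CCL19 replicates 1, 2 and 3 were above all NoCKN libraries in 50, 47 and 38 members. The same counts were not taken over all tested genes, so whether this unevenness is particular to the members was not tested. The median over members was between 0.13 and 0.18 when each library was left out in turn.

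**Figure D3:**
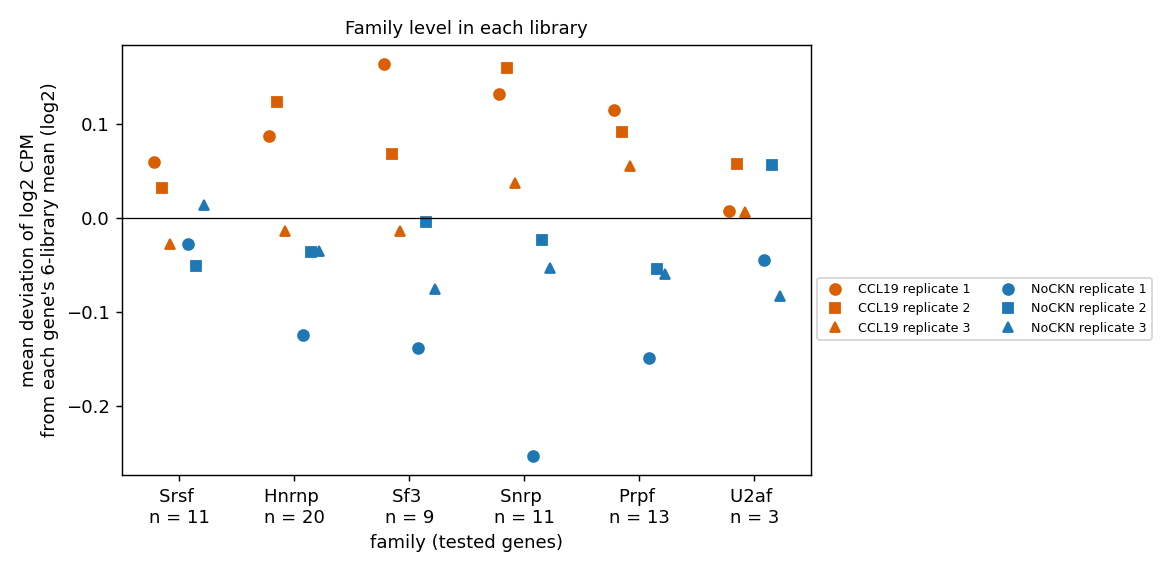
Mean deviation of log2 CPM from each gene's mean over the 6 libraries, averaged over the tested genes of each family, for CCL19 (orange) and NoCKN (blue) replicates. The groups are apart for Hnrnp, Snrp and Prpf and overlap for Srsf, Sf3 and U2af, and NoCKN replicate 1 is lowest for Hnrnp, Sf3, Snrp and Prpf.

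Base composition moved with the fold change. Across the 67 members, Spearman's rho between the GC content of the longest transcript and the log2 fold change was -0.29, and across 11181 tested genes it was -0.32. These are descriptions over genes that share the same 6 libraries. The members had a median GC content of 45.5%, against 49.7% over all tested genes. With a per-library offset for GC content and length, the members' median log2 fold change was 0.13, against 0.0053 over all genes, and DESeq2 called 14 members, 13 of them among the 16. With the offset the family medians ran Sf3 0.24, Snrp 0.19, Prpf 0.18, U2af 0.15, Hnrnp 0.13 and Srsf 0.062, an order unlike that without it.

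**Figure D4:**
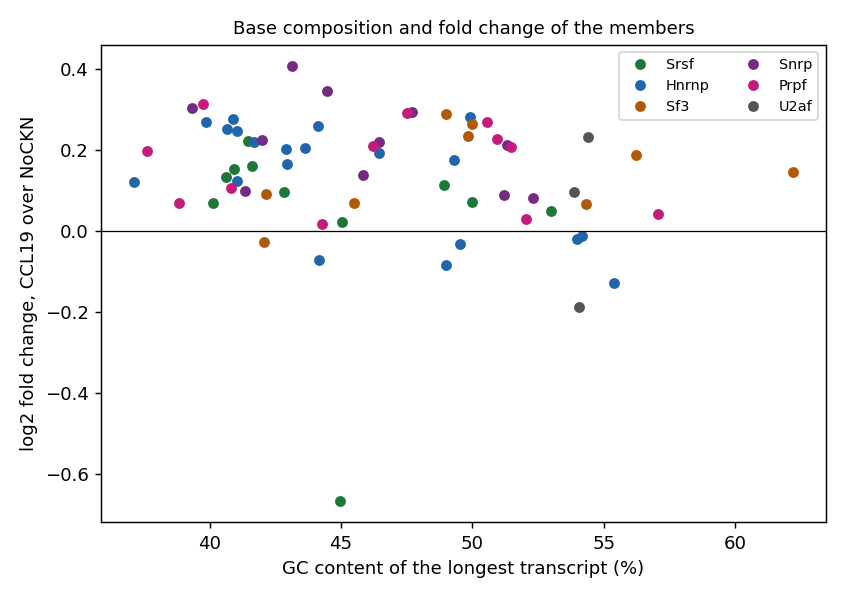
Log2 fold change of 66 of the 67 tested members, CCL19 over NoCKN, against the GC content of the longest annotated transcript in percent, with one colour per family. Most points lie above 0, and the points below 0 all have a GC content of 42.08% (Sf3b1) or more. The 6 Hnrnp genes below 0 all have a GC content above the family median of 43.9%.

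Exons of neighbouring genes overlap several of the called members, and whether the counting used strand is unknown here. On the opposite strand, Hnrnpab shares 809 bases with Phykpl, Hnrnpu 804 with Cox20, Hnrnpr 715 with Gm27022, Snrpd3 232 with Gucd1 and Sf3b3 188 with Cog4. On the same strand, Snrpa1 shares 148 bases with Gm45213, Sf3b3 76 with Gm22193 and 69 with Snord111, and Hnrnpa3 57 with Gm24574. Reads from those bases could not be assigned to one gene or the other here.

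Promoters were read to show what the genes that stood higher together have at their start sites. RefSeq promoter windows on GRCm38.p6, from 250 bases before to 50 after the start, were found for 60 members (81 windows), among them 14 of the 16 that DESeq2 called. They were searched on both strands for 6 motifs, whose letters are given with the counts further on, and a base could count in more than one motif. The last 100 bases before the start are printed for 5 called genes whose motif falls there, Hnrnpa3 at chr2:75659159-75659258 (plus strand), Prpf19 at chr19:10895131-10895230 (plus), Prpf3 at chr3:95855754-95855853 (minus), Sf3a3 at chr4:124714761-124714860 (plus) and Snrpb2 at chr2:143062969-143063068 (plus). For Prpf3 the RefSeq start used lies inside the gene as the deposited gene table bounds it, with its start at position 95855882. Its printed bases are therefore downstream of that deposited start. Capitals mark the E-box in Hnrnpa3 and the ETS-type motif, on either strand, in the other 4.
Hnrnpa3: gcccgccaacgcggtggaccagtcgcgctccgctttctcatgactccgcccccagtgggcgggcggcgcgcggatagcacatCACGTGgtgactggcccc
Prpf19: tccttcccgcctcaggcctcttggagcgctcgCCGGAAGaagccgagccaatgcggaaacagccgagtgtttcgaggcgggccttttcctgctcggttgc
Prpf3: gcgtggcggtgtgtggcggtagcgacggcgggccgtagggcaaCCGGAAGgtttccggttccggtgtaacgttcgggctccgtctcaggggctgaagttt
Sf3a3: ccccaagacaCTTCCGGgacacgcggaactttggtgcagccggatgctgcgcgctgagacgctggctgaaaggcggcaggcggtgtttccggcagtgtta
Snrpb2: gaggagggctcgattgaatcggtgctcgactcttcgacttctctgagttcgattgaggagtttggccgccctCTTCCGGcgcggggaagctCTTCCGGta

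The ETS-type motif, CCGGAAG, was in 30.9% of the members' windows, beside 18.6% of the windows of tested genes and 8.86% of all windows. It was in 20 of the 60 members and in 5 of the 14 called ones, namely Prpf19, Prpf3, Sf3a3, Sf3b3 and Snrpb2, which carries it at 2 places. The E-box, searched as CACGTG, was in 13.6% of members' windows, beside 10.3% of those of tested genes, and among called genes in Hnrnpa3 and Prpf3. The GC box, GGGCGG, was in 63.0% of members' windows and 62.9% of those of tested genes, and the reverse of the CCAAT box, ATTGG, was in 48.2% of members' windows and 37.7% of those of tested genes. The cyclic AMP response element, with the letters TGACGTCA, was in 2.47% of members' windows, beside 3.16% of those of tested genes, and the motif of E2F type, with the letters TTTCGCGC, was in 2.47%, beside 0.660%. Over all windows in the RefSeq table the shares were 7.15% for the E-box, 35.7% for the GC box and 37.4% for the reverse CCAAT box. For the cyclic AMP response element it was 1.79%, and for the motif of E2F type 0.323%. Among the 14 called genes the GC box was in 10 and the reverse CCAAT box in 9, beside 40 and 31 of the 60 members. The cyclic AMP response element was in 2 of the 60 members and 0 called genes. The motif of E2F type was also in only 2 members, of which 1, Prpf38a, was called. These shares describe letters in the windows and not binding.

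Other parts of the splicing machinery were read from lists that do not share members with the 6 families. The list of the SMN complex and Sm protein assembly, which load the Sm ring onto snRNA, had a median log2 fold change of 0.23 over 18 tested genes. DESeq2 called 6 of the 17 with an adjusted p higher (35.3%) and 0 lower, beside 7.26% higher and 6.2% lower among all genes. In that list Gemin4 stood at 68.3 ± 7.31 CPM with CCL19 and 53.2 ± 3.38 CPM in NoCKN (SD, n = 3 each), and Prmt5, which methylates Sm proteins, at 158 ± 12.8 CPM with CCL19 and 128 ± 13.3 CPM in NoCKN. The exon junction complex and mRNA export list had a median of 0.11 over 27 genes, with 4 of 25 called higher (16.0%) and 0 lower. Its core partners Magoh and Rbm8a were both called, with Magoh at 74.1 ± 1.67 CPM with CCL19 and 59.2 ± 3.13 CPM in NoCKN.

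The remaining lists had smaller medians and shares of calls near or below the 7.26% of all genes that DESeq2 called higher. The median was 0.11 over 33 tested snRNP proteins outside the rule (3 called higher, 9.09%), 0.10 over 35 factors of the PRP19 complex and the later steps (3, 8.82%) and 0.082 over 57 other SR-related proteins and alternative splicing regulators (2, 3.70%, with 1 called lower). For the 13 LSm proteins it was 0.078 (1 called higher, 7.69%), and it was 0.017 without NoCKN replicate 1 and 0.038 without CCL19 replicate 2. The 7 SR protein kinases, which phosphorylate the Srsf proteins, had a median of -0.035 with 0 called in either direction. That median lay between -0.099 without CCL19 replicate 3 and -0.0007 without CCL19 replicate 1. Among alternative splicing regulators, Syncrip averaged 317 ± 20.4 CPM with CCL19 and 238 ± 29.0 CPM in NoCKN (SD, n = 3 each), and the cold-inducible protein gene Cirbp 104 ± 14.4 CPM with CCL19 and 128 ± 12.6 CPM in NoCKN. DESeq2 called Syncrip and Elavl1 higher and Cirbp lower.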

How the data were processed

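Messenger RNA was sequenced from 3 CCL19 and 3 NoCKN samples. The labels give a TruSeq RNA kit from Illumina for library preparation. STAR 2.5, featureCounts 1.5.0-p1, DESeq2 1.28.1 and mm10 are named in the submitters' processing notes. The authors deposited raw read counts per gene and a list of changed genes with their direction, with no threshold stated.

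All 24470 genes were fitted together with edgeR 4.0.16 (filterByExpr, TMM, quasi-likelihood F test) in R 4.3.3, with Benjamini-Hochberg adjustment over the 11666 tested genes at 0.05. TMM factors lay between 0.9792 and 1.016. DESeq2 1.42.0 and limma-voom 3.58.1 were alternatives. edgeR called fewer than 5 members, so by the naming rule the 16 called by DESeq2 were added, with each family's highest and lowest member and a set fixed by symbol (40 members). Other named members were chosen after their values were seen. Log2 fold changes and SE are from edgeR unless DESeq2 is named. GC content and exon overlaps were read from GENCODE on the mm10 assembly. The fits were tested on simulated counts. The members and lists were chosen with earlier results of these data known. 1 tested member stays in the counts and medians but is not reported here by name or drawn, except within its family's mean level.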

Additional observations from a re-analysis of the deposited data

How the results depend on the processing

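edgeR's count of members higher at an adjusted p under 0.05 was 0. It was 15 with no filter on low counts, 5 with a robust prior and 18 at an adjusted p under 0.1, and DESeq2 gave 16. With each library left out it ran from 0 to 16, with 16 without CCL19 replicate 3 and 3 without NoCKN replicate 3. limma-voom, DESeq2 size factors in edgeR and the GC and length offset in edgeR gave 0. The count lower was 0 under every setting run at 0.05. The checks of DESeq2's 16 given next were chosen after the data were seen. With each library left out the count ran from 0 to 23, with filtering at 0.1 it was 15, with the GC and length offset 14, and with the replicate block 0. The replicate block in edgeR also gave 0. Shares over all genes were taken only for the main edgeR fit and for the DESeq2 fit that gave the 16. Whether the changes in count across settings are particular to the members was therefore not tested. Same-numbered libraries correlated at -0.164, 0.081 and -0.021 in their deviations from group means, and not every sample correlated best with its own number. With 3 libraries a group these correlations cannot decide whether the numbers pair the samples, and the labels do not say. All family medians stayed above 0 under every alternative. The Sf3 median was 0.24 with the GC and length offset and ran from 0.076 to 0.23 over libraries left out, Prpf from 0.14 to 0.23, and U2af from 0.052 to 0.17, with 0.15 under the offset. Under the same offset the SR-related list was at 0.035, the kinases at -0.12, the PRP19 list at 0.13 and the exon junction and export list at 0.16. Over libraries left out the SR-related list ran from 0.058 to 0.087 and the export list from 0.094 to 0.16. Of the 39 tested members that the naming rule takes, 35 kept their sign in all 13 alternatives, and Hnrnpl, Prpf18, Sf3b1 and Srsf5 did not. Outside the rule, Hnrnph3, Prpf40b, Sf3b5, Srsf4 and Srsf11 changed sign with a library left out, and Hnrnpul1, Prpf38b and Srsf11 under the GC and length offset. Srsf12, the tested member with the fewest counts, had the largest standard error.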
